A study of Mus musculus with 2 samples.

Results

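Spp1, Gpnmb, Cst7, Cd44, Trem2 and Tyrobp, 6 of the 19070 genes measured, were followed across coronal brain sections taken 3 days and 28 days after controlled cortical impact (CCI), a brain injury made by driving a piston into the bared parietal cortex of the right hemisphere. They were found by symbol in the gene list. The members were chosen by measured values, their ratios and time courses in the lesion, so every level in the lesion is given as a description. Each time point was 1 section from 1 male C57Bl6 mouse, and the mice were aged 3 months at impact per the authors. No transgene is named in the labels, and the brains had been perfusion-fixed with PFA and embedded in paraffin. RNA was read with Visium HD, in which pairs of gene probes bind the fixed section and are counted on a grid of squares (bins) of 16 µm as unique molecular identifiers (UMIs). Both sections carried the injury and no uninjured brain was analysed here, so the reference was the opposite side of the same section. With 1 section at each time point, time, animal and section cannot be told apart and no p-value is given. Intervals are 95% intervals that cover counting error only.

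The 6 genes belong to phagocytes of the brain, chiefly microglia and macrophages, that take up debris. Trem2 is a surface receptor for lipids and lipoproteins, and it signals through Tyrobp (DAP12), an adaptor with an activation motif that recruits the kinase Syk. Spp1 encodes osteopontin, a secreted glycoprotein that binds integrins and CD44, and Cd44 encodes that receptor, which also binds hyaluronan and is made by many cell types, astrocytes among them. Gpnmb encodes a membrane glycoprotein of phagocytes filled with lipid and of melanosomes, and Cst7 encodes cystatin F, an inhibitor of cysteine proteases in the lysosome. Spp1, Gpnmb, Cst7, Trem2 and Tyrobp are widely used as marks of disease-associated microglia (DAM), a state of microglia around amyloid and in damaged tissue.

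In the mouse genome (RefSeq, GRCm38.p6, the release of the mm10 build that the submitters' processing notes name), Spp1 lies at chr5:104435111-104441053, Gpnmb at chr6:49036518-49058182, Cst7 at chr2:150570415-150578944, Cd44 at chr2:102811141-102901669, Trem2 at chr17:48346401-48352276 and Tyrobp at chr7:30413782-30417582. A promoter window, from 250 bases before to 50 after the start of transcription, was found for 5 of the 6 genes in a RefSeq table of the same build, and for Spp1 2 windows were listed. The windows of the 3 genes with the highest lesion ratios at 28 days are printed because these genes were high in the same tissue, with capitals on the motifs searched, all on the plus strand.
Spp1 (chr5:104434861-104435160): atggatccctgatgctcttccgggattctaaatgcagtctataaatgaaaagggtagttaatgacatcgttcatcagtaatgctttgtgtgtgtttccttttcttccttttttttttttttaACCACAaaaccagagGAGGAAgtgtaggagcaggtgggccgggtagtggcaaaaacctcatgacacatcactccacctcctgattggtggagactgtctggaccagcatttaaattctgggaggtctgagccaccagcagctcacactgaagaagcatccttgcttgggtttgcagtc
Gpnmb (chr6:49036268-49036567): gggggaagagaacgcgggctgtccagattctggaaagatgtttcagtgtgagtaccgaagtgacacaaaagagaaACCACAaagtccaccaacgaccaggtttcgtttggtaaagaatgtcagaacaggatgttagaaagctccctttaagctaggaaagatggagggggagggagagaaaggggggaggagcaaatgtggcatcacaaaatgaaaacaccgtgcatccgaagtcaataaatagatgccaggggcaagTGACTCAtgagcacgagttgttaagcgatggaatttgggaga
Cst7 (chr2:150570165-150570464): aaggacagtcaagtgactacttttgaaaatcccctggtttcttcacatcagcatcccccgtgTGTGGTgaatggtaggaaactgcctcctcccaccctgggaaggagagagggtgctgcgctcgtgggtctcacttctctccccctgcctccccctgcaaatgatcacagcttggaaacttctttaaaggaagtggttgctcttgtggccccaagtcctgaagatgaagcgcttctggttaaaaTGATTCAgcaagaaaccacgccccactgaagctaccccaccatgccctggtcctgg
The motifs, each read on both strands, were the E-box CACGTG bound by the MITF and TFE family, the PU.1 core GAGGAA, the AP-1 site TGANTCA, which reads the same on both strands, and the RUNX core TGTGGT. No match overlapped another. The AP-1 letters were present in Gpnmb (TGACTCA), Cst7 (TGATTCA) and Trem2 (TGAATCA), and 7.81% of all 32851 windows hold them. The RUNX core was present in Spp1, Gpnmb and Cst7 (16.8% of all windows), the PU.1 core in Spp1, Cd44 and Trem2 (28.3%), and the E-box in none of the 5 (7.15%). The other Spp1 window held none of the 4. These are matches of letters in a window and describe no binding.

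The lesion zone was placed with 6 other phagocyte genes (Cd68, Lyz2, Ctsz, Lgals3, Cd52 and Laptm5), so that no member set its border. It held 8506 bins (2.18 square mm) at 3 days and 13559 bins (3.47 square mm) at 28 days, 21.7% and 27.4% of the bins on the injured side. At 3 days 479 zone bins lay along the first columns of the array, where tissue ran off its edge, so the extents are not comparable. The sections held 120615873 and 82422389 UMIs, and the median bin of the zone held 506 and 399 UMIs, against 871 and 657 on the opposite side. Levels are given as CPM, the UMIs of a gene per 1000000 UMIs of the area. Probe yields differ between genes, so levels were compared between areas and sections for each gene and not between genes. The zone held the defining microglial gene Tmem119 at 53.1 and 43.5 CPM (17.4 and 13.9 CPM on the opposite side), and the fibroblast gene Col1a1 at 134 and 93.7 CPM (22.7 and 12.0 CPM).

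The secreted and membrane glycoproteins were high in the zone at both times. At 3 days Spp1 measured 857 CPM in the zone, compared with 16.7 CPM contralaterally, a ratio of 51.2 (log2 5.68, 5.59 to 5.77). At 28 days it measured 1763 and 17.7 CPM, a ratio of 99.8 (log2 6.64, 6.54 to 6.75). Its zone level was thus 2.06-fold higher in the 28 days section (log2 1.04, 0.99 to 1.09). Gpnmb measured 232 and 7.89 CPM at 3 days and 1452 and 4.23 CPM at 28 days. Its ratio went from 29.4 (log2 4.88, 4.74 to 5.02) to 343 (log2 8.42, 8.22 to 8.64), and its zone level was 6.25-fold higher at 28 days.

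Cst7, the protease inhibitor, was the member with the widest distance between the sections. It had 74 UMIs in the zone at 3 days and 155 on the opposite side, which gave 14.3 and 1.87 CPM and a ratio of 7.69 (log2 2.94, 2.52 to 3.35). At 28 days it had 3421 UMIs in the zone and 44 on the opposite side, 478 and 0.974 CPM and a ratio of 485 (log2 8.92, 8.51 to 9.40). The zone level of Cst7 was 33.1-fold higher in the later section (log2 5.05, 4.73 to 5.41). At 28 days its ratio ranked 3rd, that of Gpnmb 5th and that of Spp1 19th of 14846 genes with at least 20 UMIs.

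The receptor complex was also higher in the zone than contralaterally. At 3 days Trem2 measured 51.3 CPM inside the zone and 8.60 CPM contralaterally, and in the later section 215 and 9.32 CPM (log2 ratios 2.58 and 4.53). Its adaptor Tyrobp measured 325 and 43.6 CPM, then 987 and 34.8 CPM (log2 ratios 2.90 and 4.82). In the zone the later section was 4.18-fold higher for Trem2 and 3.03-fold higher for Tyrobp. The hyaluronan and osteopontin receptor Cd44 was the exception. It measured 142 CPM in the zone at 3 days and 108 CPM at 28 days, 0.758 of the earlier level (log2 -0.40, -0.55 to -0.25), while its ratio to the opposite side stood at 16.4 and 25.7, with 8.66 and 4.18 CPM on that side.

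All 6 members had a log2 ratio of at least 2 at both times, a size that 8.76% of 15391 genes reached at 3 days and 7.13% of 14846 genes at 28 days. In the zone, 5 of the 6 were at least 2-fold higher at 28 days than at 3 days, a size that 4.70% of 13669 genes reached. The rule that chose the members used these contrasts, so nothing is read from the counts. The count of 6 at 3 days was 4 against the zone reflected across the separating column (Cst7 0.90, Cd44 1.77) and 5 per bin (Trem2 1.82). The count of 5 between the sections was 4 per bin, with smoothing over 3 by 3 tiles and with every bin under tissue, where Spp1 stood at 0.84, 0.86 and 0.97. The median log2 ratio of the members was 3.49 at 3 days and 5.73 at 28 days, beside 0.15 and -0.01 over all genes, and their median log2 difference between the sections was 1.83 beside -0.10. In a bin, more cells and more RNA in each cell cannot be told apart.

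At 3 days the ratios depended on the reference, and the field of several members ran across the column that separates the sides. On the opposite side within 500 µm of the zone Gpnmb measured 133 CPM, then 16.1 CPM at 500 to 1000 µm, 9.89 CPM at 1000 to 1500 µm and 3.48 CPM beyond 2500 µm. Cst7 measured 5.95, 7.87, 4.56 and 1.02 CPM over the same distances, and Cd44 measured 83.4, 31.8, 15.3 and 3.68 CPM. These 3 were lower far from the lesion than near it on the opposite side, whereas Spp1 was not, with 9.53, 9.54, 11.7 and 17.5 CPM. Tyrobp measured 120, 62.8, 68.1 and 38.6 CPM and Trem2 21.4, 12.4, 11.8 and 8.26 CPM, both also lower far away. Between 1500 and 2500 µm Gpnmb measured 4.72, Cst7 0.658, Cd44 4.72, Spp1 19.7, Tyrobp 33.3 and Trem2 5.70 CPM. Against the opposite side beyond 1500 µm, a reference chosen after seeing the data, the 3 days log2 ratios were 5.93 for Gpnmb and 3.96 for Cst7, and the median of the members was 4.56. Against the zone reflected across the separating column they were lower, 2.97 for Gpnmb, 0.90 for Cst7, 1.77 for Cd44, 2.20 for Trem2 and 2.10 for Tyrobp. With that reference the ratio of Spp1 was higher at 3 days (6.06) than at 28 days (5.70), the opposite order to that above.

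Across the sections, the 3 genes drew different maps. At 3 days 63.5% of the Spp1 UMIs of the section and 55.7% of those of Gpnmb lay in the zone, but 24.4% of those of Cst7, with 51.2% on the opposite side. Trem2 and Tyrobp were as widespread, with 18.9% and 22.1% in the zone and 50.9% and 47.6% on the opposite side. At 28 days the zone held 89.8% of the Spp1, 96.4% of the Gpnmb and 92.8% of the Cst7 UMIs. It held 68.4% of those of Cd44, 66.0% of Trem2 and 68.4% of Tyrobp. The zone held 4.29% of all UMIs at 3 days and 8.70% at 28 days, the shares that a gene at 1 level throughout the section would have.

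**Figure D1:**
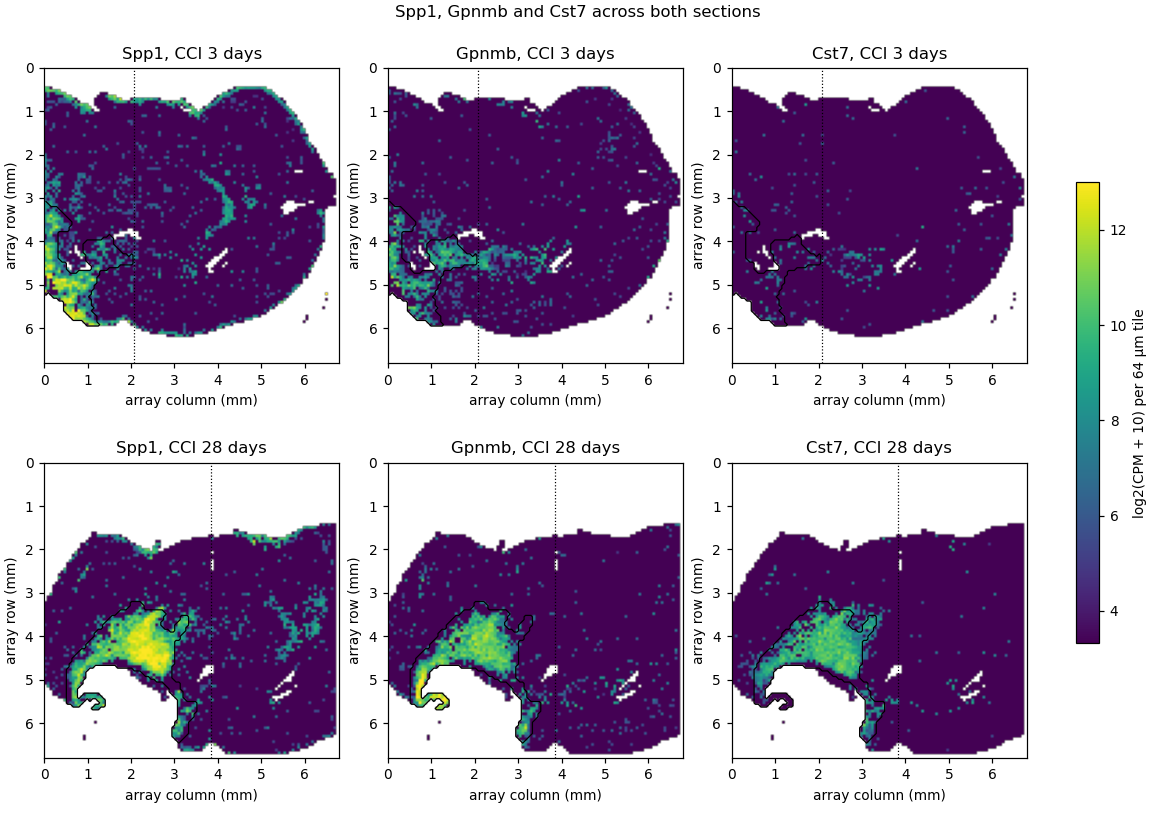
Level of Spp1, Gpnmb and Cst7 in each 64 µm tile (colour, log2 of CPM + 10) over array row and column in mm at 3 days (top) and 28 days (bottom). The solid line is the border of the lesion zone and the dotted line the column that separates injured (left) and opposite side; at 28 days the zone held 89.8%, 96.4% and 92.8% of the UMIs, at 3 days 63.5%, 55.7% and 24.4%.

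The maps in log2 CPM show where in the zone each gene lay. When the zone was cut into squares of 8 by 8 tiles with at least 200 bins, a size chosen after the values were seen, the levels within the zone ranged widely. At 28 days Spp1 ranged from 138 to 6492 CPM over 19 squares, Gpnmb from 11.6 to 3251 CPM and Cst7 from 41.1 to 1203 CPM. Spp1, Cst7, Trem2 and Tyrobp all peaked in the same square, at row 4096 and column 2048 µm, which held 24.8% of the Spp1 UMIs in 7.55% of the zone bins. Gpnmb measured 1805 CPM there.

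Gpnmb peaked elsewhere, in the narrow curled strip of tissue at the lower left of the map. The square at row 5120 µm in that strip held 3251 CPM of Gpnmb, 23.6% of its zone UMIs in 3.98% of the zone bins. Its 539 bins were deep, with 754536 of the 7157365 UMIs of all genes in the zone. In that square Cst7 had its lowest level, 41.1 CPM, the fibroblast gene Col1a1 had its highest, 334 CPM, and Spp1 measured 786 CPM. The square beside it, at row 4608, had 2961 CPM of Gpnmb, 323 CPM of Cst7 and the highest level of Cd44, 213 CPM. The squares of the other flank, at column 3072 µm, differed among themselves. Gpnmb measured 11.6, 114, 604 and 407 CPM there at rows 3584, 5120, 5632 and 6144 µm, and Cst7 395, 141, 179 and 65.7 CPM. The median of Cst7 over the squares was 331 CPM, so of these squares on the left flank the one at row 5120 µm was low in Cst7 and the one beside it was not.

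In single bins, Gpnmb was the most concentrated, with 50% of its zone UMIs in 219 bins (1.62% of the zone), against 987 bins (7.28%) for Spp1 and 891 bins (6.57%) for Cst7. The richest Gpnmb bin held 91 Gpnmb UMIs of 3434 in all, with 16 of Spp1, 3 of Tyrobp and 0 of Cst7. The next, close beside it, held 69 of 3312 and 65 of 3780. These counts are not corrected for depth, and the median bin of the zone held 399 UMIs. The highest Spp1 count, 32 UMIs, was reached in a bin of 2578, with 18 of Gpnmb, 14 of Tyrobp, 3 of Cst7, 2 of Trem2 and 2 of Cd44. All 6 members thus met in it. A bin tied with it held 32 of 2344, with 16 of Gpnmb, 5 of Tyrobp, 1 of Trem2 and 0 of Cst7 and of Cd44. The richest Cst7 bin held 7 UMIs of 3031, with 5 of Spp1, 4 of Trem2, 6 of Tyrobp and 0 of Gpnmb, and the next bins held 5 of Cst7 each, with 2 and 5 of Gpnmb.

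At 3 days Spp1 ranged from 66.9 to 2888 CPM over 13 squares and peaked at row 5632 µm, near the array edge, where Col1a1 measured 1492 CPM. Gpnmb had a median of 174 CPM over the squares and peaked, at 464 CPM, at row 4096 and column 1024 µm, where Spp1 measured 137 CPM. At the same row and column 0 µm Gpnmb measured nearly as much, 454 CPM, and Spp1 1256 CPM. The richest Spp1 bin held 27 UMIs of 749 (3.60%) and none of any other member, while the next but 1 held 25 with 1 of Gpnmb and 1 of Cst7. The richest Gpnmb bin held 10 UMIs, with 8 of Spp1, and the richest Cst7 bin 3.

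Depth inside the zone separated the members further. It was measured from tissue outside the zone only, so the edges of the tissue and of the array did not count as border. At 28 days Spp1 measured 325 CPM in the outer 2 tiles, 1374 and 2697 CPM in the next steps of 2 tiles, and 3509 CPM deeper than that. Gpnmb measured 65.3, 1794, 2382 and 2069 CPM, the widest gap between the outer 2 tiles and the next step among the 6 members. Cst7 measured 184, 362, 695 and 864 CPM, a shallower course that Trem2 (81.8 to 365 CPM) and Tyrobp (390 to 1606 CPM) shared. Cd44 measured 34.5, 147, 164 and 103 CPM, with its peak short of the deepest step. At 3 days Spp1 rose with depth from 247 to 2390 CPM, while per 1000 bins it went from 177 to 915 and then 746 UMIs. Gpnmb went from 112 to 375 and then 285 CPM, and Cst7 stayed between 9.41 and 19.1 CPM.

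Outside the border the levels dropped unevenly. In the 250 µm outside the zone on the injured side, at 28 days, Gpnmb was at 1.01% of its zone level (0.806 to 1.25%), Spp1 at 2.95% and Cst7 at 6.33% (5.40 to 7.38%). Cd44 was at 6.82%, Trem2 at 12.4% and Tyrobp at 12.5%. In the same ring at 3 days the shares on the injured side were 5.79% for Spp1, 10.1% for Gpnmb, 37.5% for Cst7 (23.0 to 59.4%), 28.9% for Cd44, 38.7% for Trem2 and 36.1% for Tyrobp. Every member had a lower share in the ring in the later section. So did the 4 other genes measured in the same way, Gfap (70.5%, then 16.2%), Vim (31.2%, then 8.29%), Apoe (111%, then 13.1%) and Tmem119 (76.0%, then 45.1%). These shares are relative to zone levels that differed between the sections. In CPM the ring was higher at 28 days for Cst7 (5.38, then 30.3) and Trem2 (19.9, then 26.8). It was nearly level for Tyrobp (117, then 123) and Spp1 (49.6, then 51.9). It was lower for Gpnmb (23.4, then 14.7) and Cd44 (41.2, then 7.34). The ring leaves out the opposite side, where at 3 days Gpnmb measured 133 CPM and Cd44 83.4 CPM within 500 µm of the zone, beside 23.4 and 41.2 CPM in the ring. Beyond the ring, at 250 to 500 µm, Cst7 measured 3.51 CPM at 28 days.

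**Figure D2:**
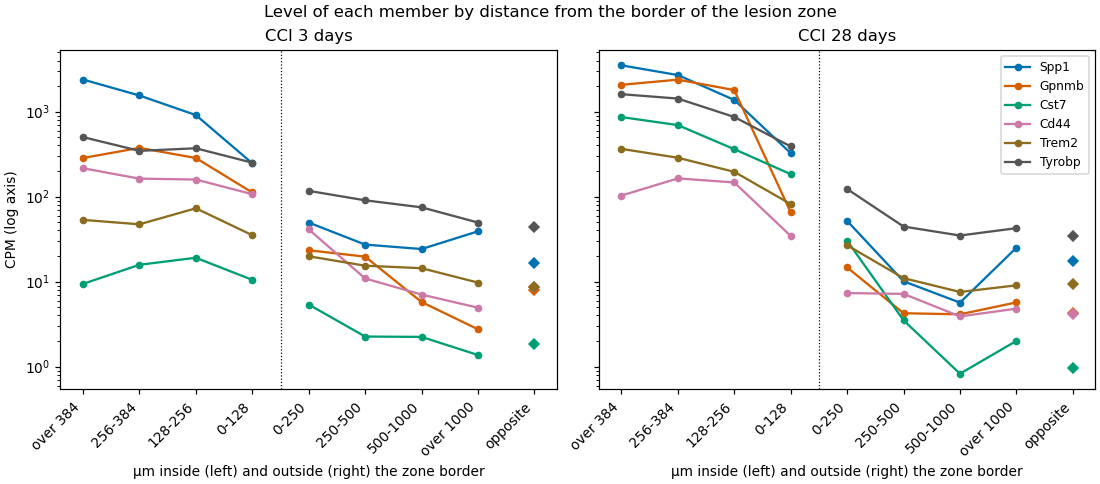
CPM of each member (log axis) in steps inside the zone border (left of the dotted line), in bands outside it on the injured side (right) and over the whole opposite side (diamonds), at 3 days and 28 days. At 28 days Gpnmb measured 2069 CPM in the deepest step and 14.7 CPM in the first 250 µm outside, and Tyrobp 1606 and 123 CPM.

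The profile by distance from the border plots these values. It also shows that Spp1 was higher again far from the lesion, with 39.1 CPM beyond 1000 µm on the injured side at 3 days and 25.1 CPM at 28 days, above the 24.2 and 5.67 CPM at 500 to 1000 µm. Cst7 measured 2.24 and then 1.37 CPM over these bands at 3 days, and 0.826 CPM (7 UMIs) and 2.01 CPM (18 UMIs) at 28 days.

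Within the 28 days zone the members differed by the tissue they lay in. The zone tiles were put into terciles by the neuronal gene Snap25. Gpnmb measured 2682 CPM in the group with least Snap25, 1415 CPM in the middle and 494 CPM in the group with most, and Cd44 192, 104 and 43.3 CPM. Spp1 and Cst7 peaked instead in the middle group, Spp1 with 1551, 2761 and 1214 CPM and Cst7 with 392, 718 and 374 CPM. By Mbp, a myelin gene, Gpnmb was highest where Mbp was lowest (1958, 1027 and 722 CPM from least to most), and Cst7 lowest there (304, 721 and 550 CPM).

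To ask whether the members were in the same bins, bins were thinned to 300 UMIs, which left 6842 zone bins at 3 days and 9155 at 28 days. At least 1 Spp1 UMI was found in 15.2 to 16.9% of them (95% interval) at 3 days and 33.2 to 35.1% at 28 days, Gpnmb in 6.28% and 21.1%, and Cst7 in 0.424% and 15.6%. Without thinning the shares were 23.5% and 35.3%, 9.83% and 23.2%, and 0.835% and 19.2%. For comparison, bins rich in neuronal transcripts on the opposite side beyond 1000 µm were thinned alike. They held Spp1 in 0.135% and 0.144%, and Gpnmb in 0.126% and 0.0959%. Cst7 was in 0.0181% of them and, at 28 days, in 0 of 6259 bins (exact upper limit 0.0589%). Such bins do not all lack Spp1, as 1 of them held 7 Spp1 UMIs before thinning at 3 days. Their median depth before thinning was 1798 and 1768 UMIs, against 506 and 399 in the zone. No member was seen in 69.7% of the zone bins at 3 days and 42.5% at 28 days, exactly 3 were seen in 0.950% and 9.63%, and 5 in 0 and 40 bins. After thinning no bin held all 6. Spp1, Gpnmb and Cst7 met in 0 of 6842 thinned bins at 3 days, which allows a share of up to 0.0539% (exact limit), and in 349 bins at 28 days (3.81%, 3.43 to 4.22%). Before thinning they did meet at 3 days, as in the bin with 25 Spp1 UMIs above.

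Sharing of bins was read against bins 64 µm away. At 3 days Spp1 and Gpnmb shared 154 bins (2.25%), and 1.48% of bin pairs 64 µm apart held 1 in each, a log2 ratio of 0.61 (0.32 to 0.89). Of the 430 Gpnmb bins, 35.8% held Spp1, compared with 14.7% of the bins without Gpnmb. Spp1 with Tyrobp (0.61, 0.35 to 0.87), Spp1 with Trem2 (0.83, 0.22 to 1.40) and Gpnmb with Tyrobp (0.62, 0.19 to 1.02) also had intervals above 0, and the median of the 15 pairs was 0.30. The intervals are nominal, because the 4 directions reuse the same bins. The other 11 pairs rested on at most 66 bins, and at this depth no difference was detectable in 10 of them. Cd44 and Trem2 shared 0 bins, an interval below 0 (upper end -0.08), but over 20 repeats of the thinning their mean was -0.69 with a range from -3.56 to 0.51.

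At 28 days many more bins were shared and the excess over neighbouring bins was small. Spp1 and Gpnmb shared 1114 bins, 12.2%, and 12.2% of pairs 64 µm apart held them too (log2 0.00, -0.10 to 0.10). Spp1 and Cst7 shared 9.45%, against 9.38%. The median of the 15 pairs was 0.01. Bins 64 µm apart lie deeper in the zone on average than all bins, where the members are high, so the shares were also taken over exactly the bins that entered the pairs, a choice made after seeing the data. Over these bins Spp1 and Gpnmb shared 13.8%, against 12.2% (log2 0.19), Spp1 and Cst7 10.7%, against 9.38% (0.19), and the median of the 15 pairs was 0.19.

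Over 20 repeats of the thinning on matched bins, 10 pairs were above 0 in every repeat at 28 days, all of them pairs without Cd44. At 3 days 4 were, the same 4 as above. Brackets in this paragraph give the lowest and highest repeat, which reflect the thinning only and not counting error. Trem2 with its adaptor Tyrobp had a mean log2 of 0.24 at 28 days (0.03 to 0.36) and Cst7 with Tyrobp 0.29 (0.22 to 0.33). For Spp1 with Gpnmb the mean was 0.61 (0.51 to 0.81) in the earlier section, compared with 0.19 (0.16 to 0.23) in the later. Against directly adjoining bins, 16 µm apart, the ratio of that pair was 0.25 and 0.08. A bin can hold parts of several cells, so a shared bin is not a shared cell, and a level that varies over less than the compared distance raises the ratio in the same way.

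**Figure D3:**
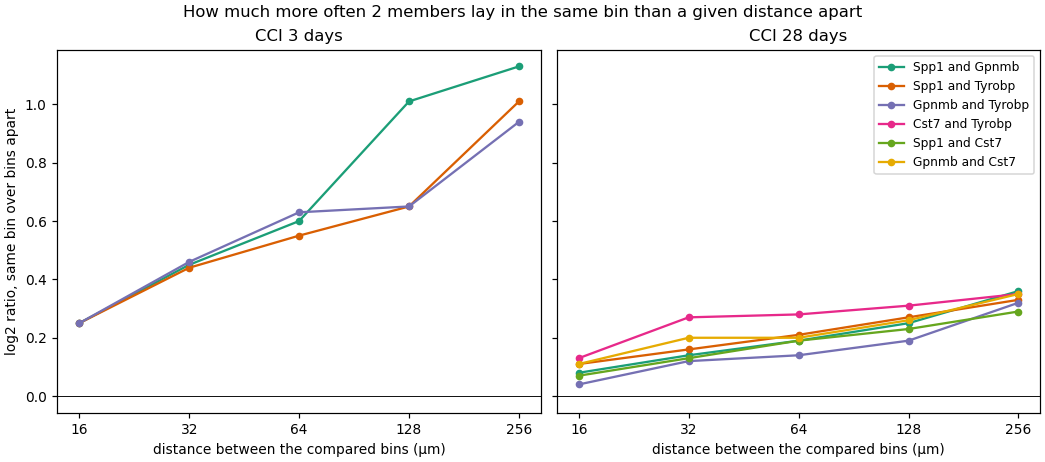
Log2 ratio of sharing in zone bins thinned to 300 UMIs. It sets the share of bins that held both genes over that of bin pairs at a distance in µm with 1 gene in each. Both shares were taken over the same bins. Drawn are the pairs among Spp1, Gpnmb, Cst7 and Tyrobp that shared at least 20 bins. At 64 µm the ratio of Spp1 and Gpnmb was 0.60 at 3 days and 0.19 at 28 days.

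The plot of sharing by distance shows the ratios growing with the distance compared, more steeply at 3 days. Over tiles of 64 µm with at least 2000 UMIs, which share depth and base level, the correlation of log2(CPM + 10) between Spp1 and Gpnmb was 0.21 over 530 tiles at 3 days and 0.65 over 865 tiles at 28 days. Between Spp1 and Cst7 it was 0.06 and 0.63, with 74 and 3421 Cst7 UMIs in the zone, and the part of these counts in the difference was not tested. Cd44 stayed between 0.08 and 0.29 with every other member at 28 days.

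The genes whose tile levels were most like each member differed between the sections. For Spp1 at 3 days they were Thbs1 (r = 0.52), Ctsb (0.52), Lgals3 (0.51, a gene that placed the zone), Arg1 (0.51) and the lipid droplet gene Plin2 (0.47). At 28 days they were Apoe (0.66), C1qa (0.65), Gpnmb (0.65), Cst7 (0.63) and Ctsd (0.63). For Gpnmb the 5 most alike at 3 days included Lyz2 (0.33, a gene that placed the zone) and the lipid carrier genes Fabp5 (0.33) and Apoe (0.30). At 28 days Apoe led (0.77), followed by Lyz2 (0.65). Cst7 was most like Spp1 (0.63), C1qa (0.62), Fcrls (0.60), Lag3 (0.52) and Serpina3n (0.51) at 28 days. Cd44 was most like Tm4sf1 (0.29) at 3 days and like the complement gene C3 (0.37), the filament gene Vim (0.34) and Lcn2 (0.34) at 28 days. Tyrobp was most like Fcer1g (0.48), which encodes the other adaptor of this kind, at 3 days and Apoe (0.64) at 28 days. Only genes with at least 200 UMIs in the zone were ranked, which left out Cst7 as a partner at 3 days (74 UMIs). The correlations are descriptions over neighbouring tiles of 1 section.

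The company that each gene kept was then read from marker lists in thinned zone bins. At 3 days bins with Spp1 held 168 UMIs of monocyte and macrophage genes per 1000 bins, and bins without it 44.7, a log2 ratio of 1.91 (1.63 to 2.19). They held 328 and 99.2 fibroblast UMIs (1.73, 1.53 to 1.92) and 400 and 293 microglial UMIs (0.45, 0.30 to 0.60). Gpnmb bins also had more monocyte and macrophage UMIs (log2 1.69), slightly more microglial UMIs (0.41), but fewer fibroblast UMIs (-0.60, -1.12 to -0.15). Cst7 was present in 29 bins, which held more microglial UMIs than the rest (1.20, 0.45 to 1.79). Cd44 bins held fewer microglial UMIs (-0.57, upper end -0.20).

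At 28 days bins with Spp1 held 796 microglial UMIs per 1000 bins, and those without it 402 (0.98, 0.90 to 1.07). Their monocyte and macrophage ratio was 0.23 (-0.59 to 1.01), not detectably different from 0 at this depth, and they had fewer fibroblast UMIs (42.5 against 81.6, log2 -0.94). Gpnmb bins held more microglial UMIs (0.78) and more fibroblast UMIs (147 against 47.2, 1.64, 1.41 to 1.87). They also held more monocyte and macrophage UMIs (24 UMIs, log2 1.29, 0.48 to 2.06) and neutrophil UMIs (32 UMIs, 0.99, 0.31 to 1.62). Cst7 bins held more microglial UMIs (836 against 481, 0.80) and very few of fibroblasts, 8 UMIs in 1426 bins (5.61 against 79.8 per 1000 bins, log2 -3.74, -5.05 to -2.84). The fibroblast ratio was thus above 0 for Gpnmb and below 0 for Cst7, and the part of fibroblasts in their levels was not tested. Both ratios pool the whole zone. The fibroblast gene Col1a1 was highest in the square of the Gpnmb peak (334 CPM) and next highest at row 4608 and column 2048 µm (235 CPM). In the latter Gpnmb measured 439 CPM and Cst7 709 CPM, and the part of single squares in the ratios was not tested. Cd44 bins had a microglial ratio of 0.10 (-0.16 to 0.33) and held more ependymal UMIs (1.36, 0.77 to 1.86).

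**Figure D4:**
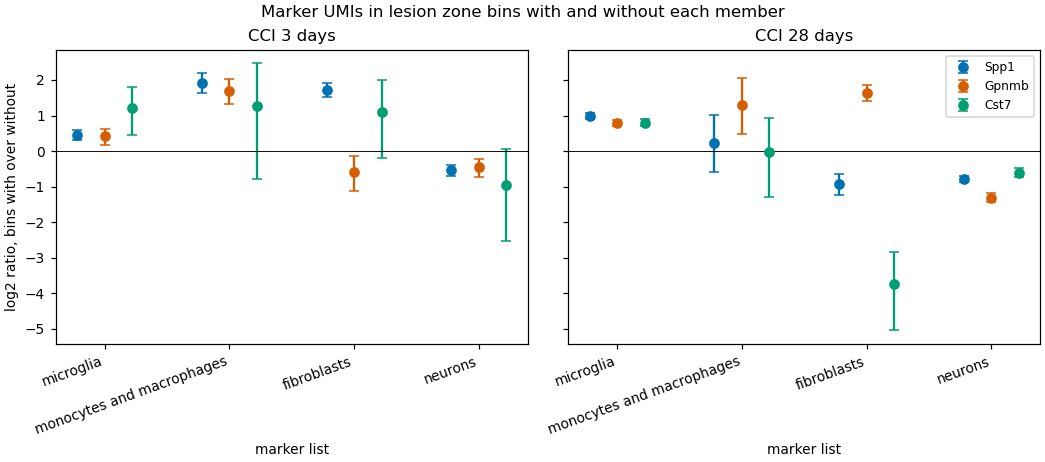
Log2 ratio of marker UMIs per bin in thinned lesion zone bins with over without Spp1, Gpnmb or Cst7, for 4 marker lists at 3 days and 28 days, with 95% counting intervals. At 28 days the fibroblast ratio was 1.64 for Gpnmb, -0.94 for Spp1 and -3.74 for Cst7.

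The plot of marker UMIs sets these ratios side by side. The list of monocyte and macrophage genes went from 214 CPM in the zone at 3 days to 36.0 CPM at 28 days, and its gene Arg1 from 452 UMIs to 4, while that of microglia went from 903 to 1646 CPM. The part of this shift in the levels of Spp1 and the others was not tested.

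The partners and downstream genes of each member were taken from lists. Of the 8 genes of TREM2 and TYROBP signalling, 8 had a log2 ratio of at least 2 at both times, with a median of 2.71 at 3 days and 3.53 at 28 days. The kinases Syk (2.70, then 3.67) and Btk (3.26, then 4.19) and the lipid kinase subunit Pik3cg (2.23, then 3.24) were among them. Of 14 further DAM genes 6 reached this size at 3 days and 12 at 28 days (medians 1.96 and 3.34). Itgax had 4.10 and 6.71, Igf1 0.39 and 4.21, Apoe 0.14 and 3.75, and Ank 0.13 and 0.56.

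Of the 7 cystatin F targets and other cystatins, 4 reached a log2 ratio of 2 at each time (medians 2.03 and 2.50). Ctsc, which encodes a protease that cystatin F inhibits, had 3.39 and 3.21 beside 2.94 and 8.92 for Cst7. Ctsh had 2.61 and 3.95, and the secreted cystatin Cst3 0.02 and 1.23. Of the 12 integrins, hyaluronan synthases and other partners of osteopontin and CD44, 6 reached this size at 3 days and 3 at 28 days (medians 1.96 and 0.92). The hyaluronan synthase Has2 had 4.54 and 2.91, and the integrin chains Itga5 3.65 and 2.45 and Itgb5 2.06 and 2.87. This was the only one of the 6 lists whose median was lower at 28 days than at 3 days.

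Of the lysosome and lipid genes 5 of 12 measured reached a log2 ratio of 2 at 3 days and 8 of 13 at 28 days (medians 1.58 and 2.69). Atp6v0d2, a proton pump subunit, had 360 zone UMIs and 11 on the opposite side at 28 days (7.63), and Plin2 4.38 and 3.38. Of the MITF and TFEB factors, which drive lysosomal genes and Gpnmb, 1 of 4 reached it at each time, Tfec on 12 and 9 zone UMIs (medians 1.22 and 1.51). Beside these counts stand the 8.76% and 7.13% of all genes given above. The lists were chosen with results of these data known. The zone was placed with phagocyte genes, so other genes of phagocytes are high in it through its definition. Nothing is therefore read from the list counts.

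Away from the lesion (on the opposite side or over 500 µm from the zone), places were looked for as joined tiles with at least 5 UMIs of a member and at least 10 times its mean level there. There were 69 over all members at 3 days and 31 at 28 days. Spp1 had 28 and 23 of them, Tyrobp 29 and 5, Cd44 9 and 0, Gpnmb 3 and 2, Cst7 0 and 1, and Trem2 none. The opposite side counted as away at any distance, so at 3 days a Cd44 place lay 264 µm and a Tyrobp place 487 µm from the zone. With only tiles over 500 µm from the zone on either side, a limit chosen after seeing the data, the totals were 61 and 31. The part of the field around the lesion in the Cd44 and Tyrobp counts was not tested. The Spp1 places held 1075 of its 2164 UMIs away from the lesion at 3 days (49.7%) and 398 of 1071 at 28 days (37.2%).

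Many Spp1 places lay along the outer edge of the section, the richest among them. At 3 days the fibroblast list stood furthest above the surrounding tissue in 14 of the 28 places, which held 641 UMIs, and at 28 days in 6 of 23, which held 126 UMIs, with oligodendrocytes first in 5 and microglia in 4. The richest place held 293 Spp1 UMIs over 16 tiles, 2423 µm from the zone on the injured side, with fibroblast genes at 61.4 times and the lubricin gene Prg4 at 199 times the surrounding level. It held 4 Gpnmb and 0 Cst7 UMIs. Another, with 108 Spp1 UMIs, had monocyte and macrophage genes at 61.3 times (21 UMIs) and fibroblast genes at 44.1 times (235 UMIs). The interferon-induced gene Cxcl10 was at 186 times and Prg4 at 156 times there. At 28 days the richest place held 74 UMIs, with fibroblast genes at 60.6 times, and the next ones 58 and 46 UMIs. In these next ones neutrophil genes were at 246 and 619 times on 24 and 53 UMIs (S100a9 at 680 times in the latter). Fibroblast genes were also high in them, at 52.4 and 25.6 times on 175 and 74 UMIs. In bins with at least 2 Spp1 UMIs away from the lesion Prdm6 was at 74.5 times its level in other bins at 3 days (337 bins) and 117 times at 28 days (132 bins).

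A different Spp1 place lay deep in the opposite side at 3 days, 2247 µm from the zone. It was an arc of 17 tiles with 137 UMIs, at most 4 in a bin and spread over 101 bins. It held 0 UMIs of Gpnmb, Cst7 and Cd44, 1 of Trem2 and 4 of Tyrobp, and fibroblast genes were at 0.607 times the surrounding level. The highest marker list there was mural cells, at 2.11 times. The potassium channel genes Kcns3 (25.5 times) and Kcng4 (24.1 times) and the calcium-binding protein gene Pvalb (21.9 times, chosen after its value was seen) were high there, as was Pln (35.6 times). Smaller places of the same kind were seen on the opposite side at 28 days, with 28, 24 and 20 Spp1 UMIs and Pvalb at 9.12, 13.2 and 26.3 times. The highest marker list in these was microglia at 1.88 and 1.69 times and endothelium at 1.61 times.

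**Figure D5:**
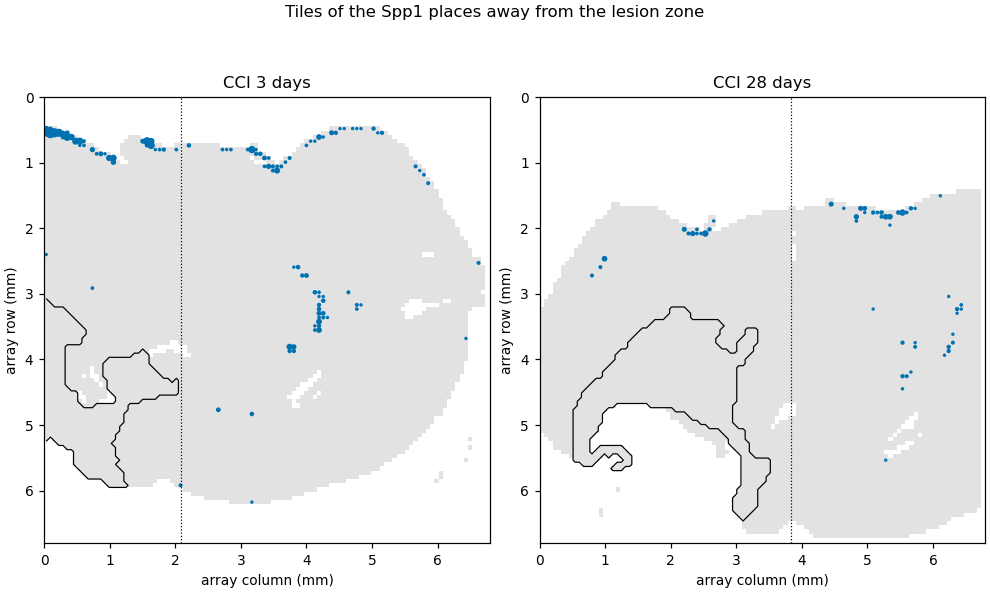
Tiles of the Spp1 places away from the lesion on the tissue outline (grey) at 3 days and 28 days, over array row and column in mm, with dot area in proportion to the Spp1 UMIs of the tile, the zone border as a solid line and the side column dotted. Dots lie along the outer edge of the section and, on the opposite side at 3 days, in an arc of 17 tiles with 137 UMIs.

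The map of Spp1 places shows the outer edge and the arc. For Gpnmb, 2 of the 3 places at 3 days were 2 tiles from the zone on the opposite side, with 88 and 69 UMIs. In the richer, microglia was the highest marker list, at 1.25 times, and the genes Dsp (98.4 times) and C1ql2 (39.6 times), known from dentate granule cells, were high, with 24 UMIs of Cd44 and 3 of Spp1. In the other, Tgm1, Klk6, Tnc and Vim led, with microglial genes at 5.00 times and 39 UMIs of Tyrobp. The last place held 6 Gpnmb UMIs where ependymal genes were at 101 times. In opposite-side bins with at least 3 UMIs of C1ql2, Dsp and Prox1 together, a definition chosen after the values were seen, Gpnmb measured 53.0 CPM in 266 bins at 3 days (37 UMIs, 7.50 CPM in other bins) and 32.5 CPM in 181 bins at 28 days (17 UMIs, 3.90 CPM in other bins). At 3 days 30 of the 37 UMIs lay within 500 µm of the zone, at 111 CPM, where all opposite-side bins measured 133 CPM, and such bins measured 20.4 CPM at 500 to 1000 µm, where all bins measured 16.1 CPM. At 28 days such bins measured 30.6 CPM at 500 to 1000 µm (9 UMIs) and 31.5 CPM at 1000 to 1500 µm (6 UMIs), where all bins measured 7.69 and 3.36 CPM. On the injured side outside the zone they measured 7.87 CPM at 3 days (3 UMIs) and 19.2 CPM at 28 days (5 UMIs), and other bins 9.21 and 6.53 CPM.

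At 28 days 1 small spot on the injured side, 1154 µm from the zone, carried several members. A single bin of 1200 UMIs held 11 of Tyrobp, 7 of Spp1, 5 of Cst7 and 2 of Trem2 with 57 of Apoe and 5 of C1qa, and 0 of Gpnmb and of Tmem119. The 3 tiles around it held 33 Tyrobp, 22 Spp1, 7 Cst7 and 3 Trem2 UMIs, with microglial genes at 4.93 times the surrounding level. This was the only Cst7 place found at either time. A tile nearby, 1132 µm from the zone, held 8 Gpnmb UMIs, 4 of them in 1 bin, with 7 of Spp1 and 0 of Cst7. The other Gpnmb place, on the opposite side, held 5 UMIs with none of Spp1 or Cst7.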

How the data were processed

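RNA was measured in 2 sections, 1 from each of 2 mice. The deposited files hold raw UMI counts per gene and 16 µm bin, which the authors made with Space Ranger 4.0.1 per the file headers (mm10 per the submitters' processing notes, a probe set without Clec7a), with no normalization. Bins under 100 UMIs were left out (1.93% and 2.15%). The injured side and the zone (tiles of 64 µm, smoothed over 5 by 5 tiles, over the 99th percentile found contralaterally, patches of at least 25 tiles) were set as above. Ratios of CPM used a pseudocount of 0.5 and exact conditional binomial intervals, shares exact Clopper-Pearson intervals, all for counting error only. Neuron-rich bins had at least 10 UMIs of Snap25 and Syt1. The interval script was tested on simulated data and covered the true ratio for 96.0% of 15391 genes in the 3 days section and 95.5% of 14846 in the 28 days section. The members, marker lists and gene lists were chosen with earlier results of these data known. Genes named beside the members were the 5 most alike or most raised in each step, or list genes. Scripts ran in Python 3.11.15 with scipy 1.17.1, numpy 2.4.6, matplotlib 3.10.9 and pandas 2.3.3. Alternatives were another scaling, reference, zone, thinning, distance and place threshold.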

Additional observations from a re-analysis of the deposited data

How the results depend on the processing

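No paired analysis was possible because each time point was 1 section from 1 mouse. With no replicates, no library could be left out. Of 56 alternative values of the summary results, 34 stayed within their counting interval or within 1.5 times, 20 moved and 2 turned sign. Of 144 for single genes, 74 stayed and 70 moved, none turning sign. The median log2 ratio at 3 days (3.49) was 3.35 with size factors, 2.73 per bin, 3.88 against the injured side beyond 500 µm, 2.15 against the reflected zone, 3.08 with the zone at the 95th percentile and 4.56 against the opposite side beyond 1500 µm, the last chosen after seeing the data. At 28 days (5.73) it was 5.06 per bin, 5.24 against the reflected zone, 5.34 at the 95th percentile, 5.96 with smoothing over 3 by 3 tiles and 5.53 beyond 1500 µm. The difference between the sections (1.83) was 1.63 per bin. The median log2 of shared bins at 28 days (0.01) was -0.02 against bins 2 tiles away and -0.02 at the 95th percentile. The number of places (69 and 31) was 151 and 100 with at least 3 UMIs and 22 and 11 with at least 10. It was 61 and 31 over 500 µm from the zone on either side, a limit chosen after seeing the data. The share of genes past the size used was 10.7% and 4.71% at 28 days (7.13%) and 12.5% and 3.13% between the sections (4.70%), with minimums of 1 and 200 UMIs. The causes were not tested.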
